A study of Homo sapiens with 6 samples.

Results

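The transcripts of 53 genes of DNA replication and mitosis were followed in 6 libraries of the human colorectal carcinoma line HCT-116. Of these genes, 24 act in S phase, when the genome is copied, and 29 act in G2 and M phase, when the cell prepares for division and divides. A gene was taken when its symbol in the deposited table was the same as a listed name, and all 53 were found among 60546 gene identifiers. All 53 also passed the filter on low values (1 or more in 3 or more libraries), as did 26536 genes in all, and the tests below were run over those 26536. The S-phase genes were sorted by role into 12 genes of origin licensing and the replicative helicase, 7 of DNA synthesis and nucleotide supply, and 5 regulators of entry into S phase. The G2/M genes comprised 6 mitotic cyclins, CDK1 and its phosphatases, 3 genes of anaphase control, 6 mitotic kinases and spindle checkpoint genes, 9 kinetochore, motor and spindle genes, 3 genes of chromosome structure and survival, and 2 mitotic transcription factors.

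Both groups were HCT-116 cells of wild-type genotype, grown in the same serum-containing medium. The GOLPH3 group was infected with a viral PMSCV construct that carries GOLPH3, a phosphoprotein of the Golgi membrane, and the Vector group with the empty PMSCV construct. There were 3 libraries in each group, and the study's methods describe them as cells of different generations of the 2 lines. Whether either line was a single clone is not given in the sources used here. The libraries are further distinguished in their titles by a P number, which was P8, P12 and P13 in the GOLPH3 group and P11, P12 and P13 in the Vector group. The titles do not say what P stands for. Values are given below in that order, as normalized reads, the deposited reads per gene divided by a factor for each library.

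The libraries held 15708846 to 21900764 reads, and mitochondrial genes took 4.41% to 9.97% of them. GOLPH3 itself was at 1630, 1272 and 1384 normalized reads under the GOLPH3 label, against 1892, 1968 and 1472 under the Vector label. The transcript the construct should raise was therefore not higher in the group labelled for it (log2 difference -0.31, adjusted p = 0.609, limma; p = 0.2 in an exact two-sided permutation test, which with 3 and 3 libraries cannot go below 0.1). For this reason the groups are called by their labels throughout. A list of 12 HEK293-like markers, chosen with earlier results of these data known, separated the groups as well. HEK293 is an embryonic kidney line. The 12 HEK293-like markers summed to 562, 422 and 554 normalized reads in GOLPH3, against 6251, 10624 and 17019 in Vector. Of the 12, 10 were called lower in GOLPH3 and 2 were not, PAX2 with a log2 difference of 0.17 and GATA2 with -1.24 (adjusted p under 0.05, limma, as were 4.12% of all genes). On the same list IRS4, NEFM, UCHL1, HOXD13, ZEB2 and DACH1 were at 0 reads in all 3 GOLPH3 libraries, and no marker of the list was at 0 in a Vector library. The list also holds VIM and CDH2, which encode the mesenchymal markers vimentin and N-cadherin, with log2 differences of -7.44 and -8.03. The study reports both proteins, by western blot, as higher in cells that overexpress GOLPH3. Of 16 colon epithelial markers 5 were called higher in GOLPH3 (KRT18, KRT19, ELF3, CLDN3 and CLDN4), as were 0.953% of all genes. The intestinal factor CDX2 had a log2 difference of -0.52 and KRT20 was at 0 in every library. VIL1, CDX1, CDH17, LGALS4, GPA33 and CEACAM5 reached at most 10.3 normalized reads in any library of either group. The list summed to 86894, 70609 and 151969 against 36866, 33119 and 44159 normalized reads, largely through KRT8, KRT18 and KRT19. Fibroblast markers summed to between 488 and 1517 normalized reads and blood cell markers to between 4 and 63, with DCN and CD3E at 0 in every library. The HEK293-like and colon epithelial lists move with the labels. The part of any of these lists in the differences between groups given below was not tested. Nor can a smaller share of cells in a cycle phase be told apart from less RNA per cell in such bulk samples.

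Cells duplicate their genome by loading the MCM2 to MCM7 helicase onto origins in G1, with CDC6 and CDT1 as loaders, and by converting it to an active helicase with CDC45 and the GINS proteins in S phase. The genes for these steps are classical targets of E2F transcription factors, which are held off until the retinoblastoma protein is phosphorylated. Mitotic genes are switched on later, by the MuvB complex with B-MYB (the product of MYBL2) and FOXM1, through a short promoter element called CHR that often lies close to CCAAT boxes bound by NF-Y. HCT-116 cells keep a functional p53 pathway, and p53 acts on both sets through p21, the product of CDKN1A.

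The promoters of the members carried these elements in different proportions. In the 250 bases before the RefSeq start, an E2F motif (TTTCGCGC, TTTGGCGC, TTTCCCGC or TTTGCCGC, either strand) was found in 12 of 21 S-phase genes with an entry (57.1%) and in 1 of 23 G2/M genes (4.35%), against 2.79% of 27305 promoters of the same length. A CHR motif (TTTGAA or TTTAAA, either strand) was found in 17 of 23 G2/M genes (73.9%), in 4 of 21 S-phase genes (19%) and in 22.1% of all promoters. CCAAT, on either strand, was found in 78.3% of the G2/M genes, 71.4% of the S-phase genes and 33% of all promoters. All 8 kinetochore, motor and spindle genes with an entry held a CHR motif. A match describes the letters only, not a bound site. The 150 bases before the start are shown for 3 S-phase genes and 3 G2/M genes whose values are described below, from RefSeq on GRCh38.p14 and 5′ to 3′ on the strand of the gene, with every E2F, CHR and CCAAT match in capitals. Matches to different motifs, or on opposite strands, may overlap and then form a longer run of capitals.
MCM6, chr2:135876444-135876593, minus strand: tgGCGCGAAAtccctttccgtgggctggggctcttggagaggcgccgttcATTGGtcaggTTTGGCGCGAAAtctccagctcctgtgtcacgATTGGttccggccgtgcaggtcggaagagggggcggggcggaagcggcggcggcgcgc
POLA1, chrX:24693768-24693917, plus strand: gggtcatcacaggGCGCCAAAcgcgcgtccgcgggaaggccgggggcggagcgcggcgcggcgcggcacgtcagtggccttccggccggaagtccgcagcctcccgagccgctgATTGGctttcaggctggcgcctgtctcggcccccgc
CDC25A, chr3:48188418-48188567, minus strand: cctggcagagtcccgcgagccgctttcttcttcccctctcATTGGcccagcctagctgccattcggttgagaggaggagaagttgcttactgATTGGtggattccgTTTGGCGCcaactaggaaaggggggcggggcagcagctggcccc
KIF11, chr10:92592980-92593129, plus strand: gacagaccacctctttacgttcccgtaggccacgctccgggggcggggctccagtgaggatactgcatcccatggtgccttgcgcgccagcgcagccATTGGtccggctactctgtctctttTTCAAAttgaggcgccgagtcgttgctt
CENPF, chr1:214603045-214603194, plus strand: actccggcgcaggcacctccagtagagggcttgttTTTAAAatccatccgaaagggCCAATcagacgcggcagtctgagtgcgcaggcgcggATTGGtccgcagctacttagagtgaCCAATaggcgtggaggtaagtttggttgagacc
MKI67, chr10:128126424-128126573, minus strand: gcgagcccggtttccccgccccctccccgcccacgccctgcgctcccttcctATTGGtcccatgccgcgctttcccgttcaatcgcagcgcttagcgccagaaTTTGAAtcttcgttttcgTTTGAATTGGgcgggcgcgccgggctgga
The first 3 sequences hold E2F and CCAAT letters and no CHR letters, and the last 3 hold CHR and CCAAT letters and no E2F letters. They were picked for display, and other members differ. Among S-phase genes MCM10, CDC45 and RRM1 held no E2F match, and RRM1, RRM2, TK1 and CCNE1 held a CHR match. Among G2/M genes BUB1 and CCNA2 held no CHR match.

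The members were expressed at very different levels. Per kilobase of exon, averaged over the 6 libraries, the highest were PCNA, the sliding clamp of the replicative polymerases, at 3206 normalized reads, the thymidine kinase TK1 at 2101, the ubiquitin-conjugating enzyme UBE2C of the anaphase-promoting complex at 1912, and its activator CDC20 at 1840. The lowest were the spindle protein NUSAP1 at 7.47, cyclin E2 (CCNE2) at 51.4, the kinetochore motor CENPE at 75.3 and the phosphatase CDC25C at 76.3. NUSAP1 shares 62.2% of its exon bases with an overlapping gene on the same strand. CCNE2 shares 37.1% with 2 genes, of which INTS8 shares most, and TYMS shares 46.6% with 2 genes, of which ENOSF1 shares most. The values of NUSAP1, CCNE2 and TYMS may therefore be incomplete or may hold reads of a neighbour. MCM2 shares 23.6% of its exon bases with 2 genes, of which an antisense gene shares most, and RRM2 20.2% with a gene on its own strand. In all, the members took 0.731%, 0.664% and 0.638% of the normalized reads in GOLPH3, against 0.922%, 0.822% and 0.951% in Vector, with all 3 GOLPH3 libraries below the 3 Vector libraries.

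**Figure D1:**
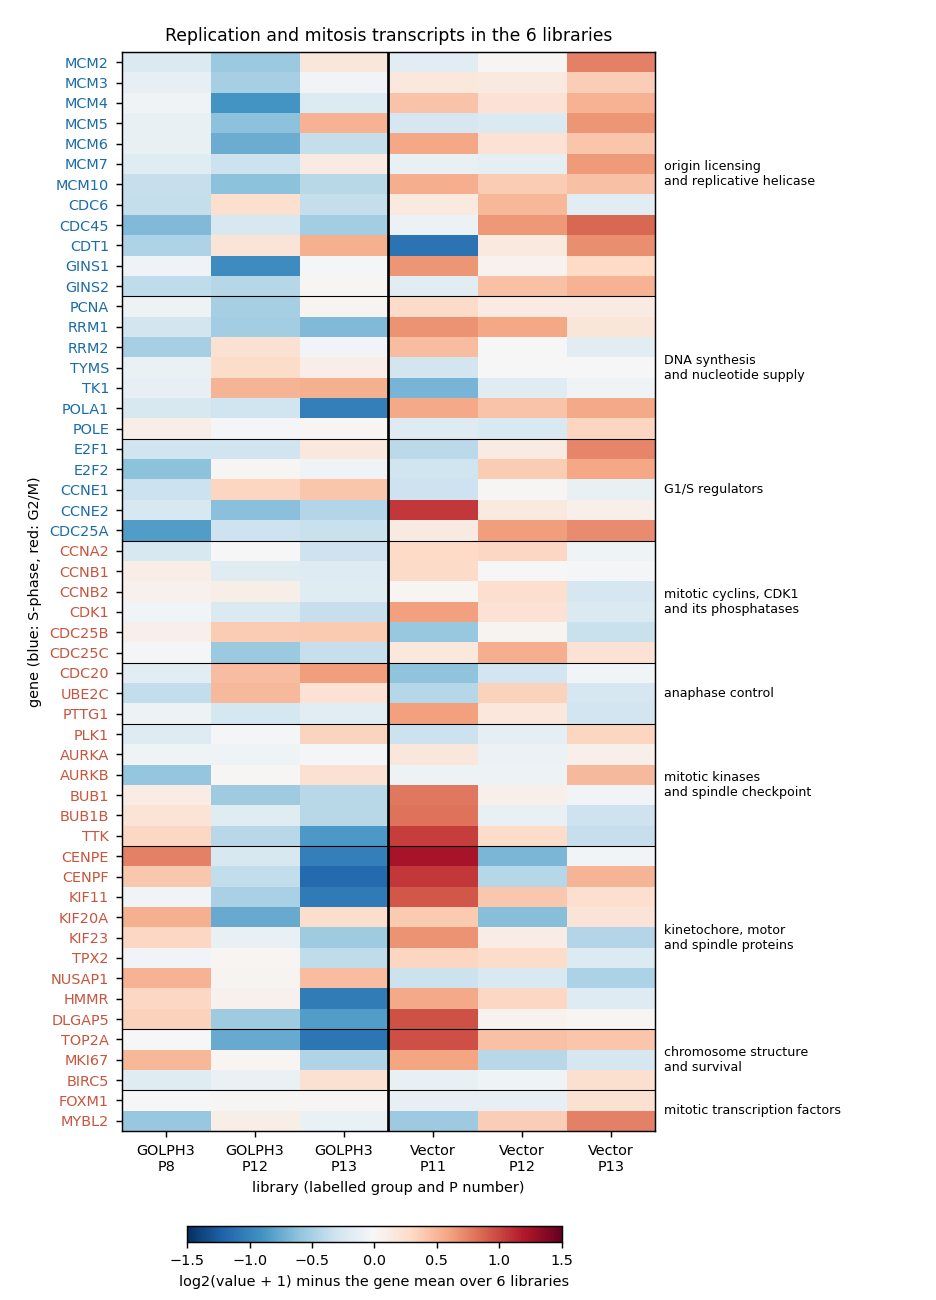
Heat map of the 53 genes (rows, grouped by role, S-phase genes in blue and G2/M genes in red letters) in the 6 libraries (columns, by labelled group and P number). Colour is log2(value + 1) minus the gene's mean over the 6 libraries, and the kinetochore, motor and spindle rows are mostly red at P8 and P11, the lowest P number of each group.

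The comparison of the GOLPH3 and Vector groups asked whether transcripts differed with the introduced GOLPH3 construct. Replication transcripts were mostly lower in the libraries labelled GOLPH3, with a log2 difference below 0 for 19 of 24 S-phase genes and a median of -0.42, against 0.02 over all genes tested. For the G2/M genes the difference was below 0 for 21 of 29, with a median of -0.26. Among the S-phase genes the median was -0.06 for 6 genes under 3000 exon bases, -0.49 for 14 of 3000 to 6000 and -0.46 for 4 above 6000. The same classes of all protein-coding genes with a mean of at least 100 normalized reads had medians of 0.18, -0.01 and -0.10. The part of exon length in the group difference was not tested. No member passed an adjusted p of 0.05 with limma, where 5.07% of all genes tested did and 4.93% of those with a mean of at least 100 normalized reads. At an unadjusted p of 0.05, 10 members passed, all lower in GOLPH3, of which 8 were S-phase and 2 were G2/M genes, against 10.1% of all genes in that direction. No member was called with edgeR on the recovered reads (6.58% of its genes). DESeq2 called 5 lower, namely MCM10, RRM1, POLA1, CDC25A and TOP2A (8.68% of its genes). With the P number as a factor in the limma fit 23 members were called, as described below.

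Groups that did not overlap were more frequent among S-phase than among G2/M genes, which is given as a description and was not tested. Every GOLPH3 library lay below every Vector library for 11 of 24 S-phase genes (45.8%) and for 3 of 29 G2/M genes (10.3%), against 12.8% of all genes and 13.6% of genes with a mean of at least 100 normalized reads. In the other direction the groups did not overlap for 2 members, CDC25B and NUSAP1, both of the G2/M set, against 9.2% of all genes and 9.88% of genes with such a mean. The count of 14 members apart and lower was the same after quantile normalization and with TMM factors, both chosen after the values had been seen.

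**Figure D2:**
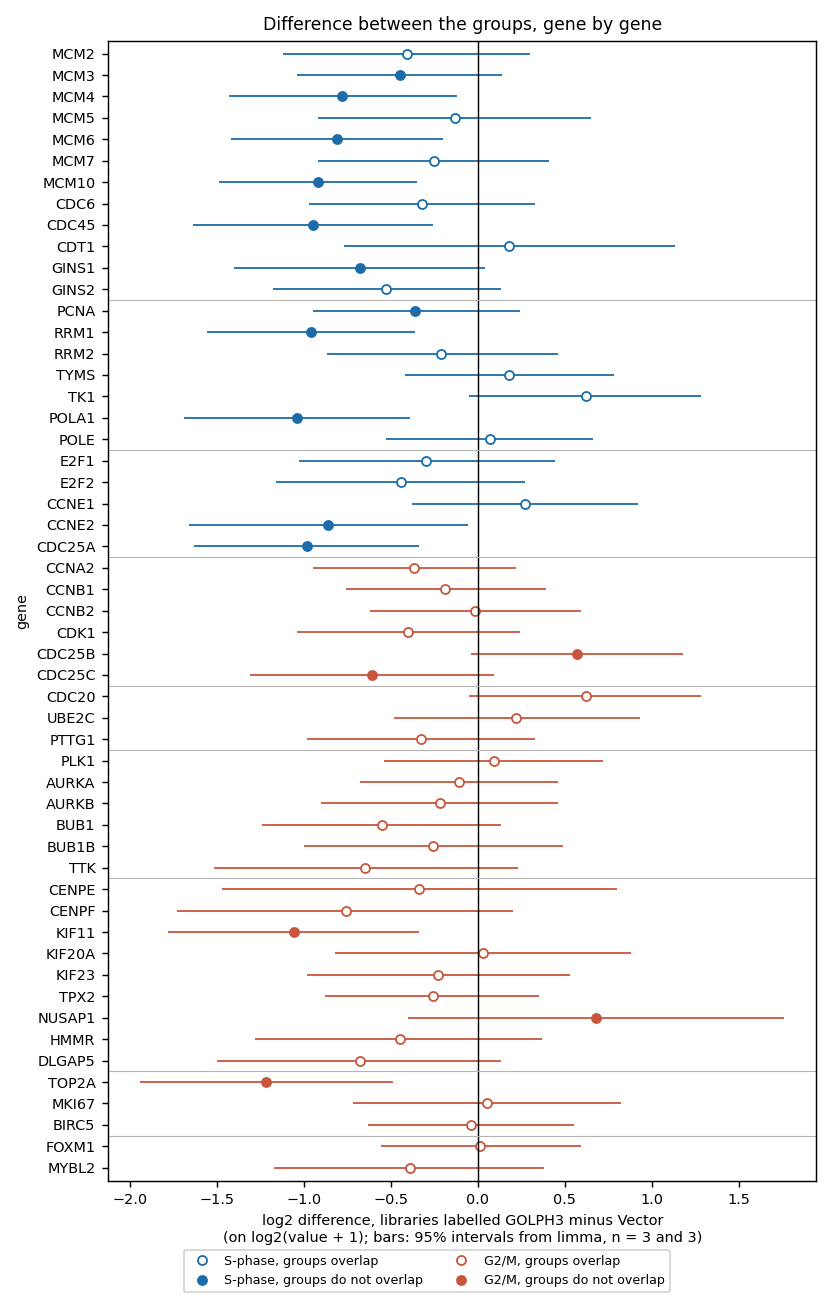
Log2 difference between the libraries labelled GOLPH3 and Vector (x axis, on log2(value + 1)) for each of the 53 genes (y axis, by role), with 95% intervals from limma over 3 and 3 libraries. Filled points mark the 16 genes whose groups do not overlap, of which 14 lie left of 0.

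Among the genes of origin licensing and the helicase, 11 of 12 had a difference below 0 (median -0.49) and 6 had groups that did not overlap. MCM10, which helps to activate the loaded helicase, was at 1036, 864 and 992 normalized reads in GOLPH3 and at 1933, 1720 and 1795 in Vector. The 3 GOLPH3 libraries were close together and all below the Vector libraries (log2 difference -0.92, SE 0.26, adjusted p = 0.0716). CDC45, the partner of MCM and GINS in the active helicase, was at 598, 800 and 661 against 892, 1493 and 1721 normalized reads. Here the Vector library at P11 came close to the GOLPH3 libraries (log2 difference -0.95, SE 0.32, adjusted p = 0.125), and without that library CDC45 was called lower, at a log2 difference of -1.23, the single member called there (3.59% of all genes).

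The helicase subunit MCM6, whose promoter is shown above with its E2F letters, had 2642, 1716 and 2228 normalized reads in GOLPH3 and 4299, 3329 and 3825 in Vector. MCM4 had 5707, 3178 and 5143 against 7983, 6894 and 8520. Neither gene overlapped between the groups, but neither passed the test (log2 difference -0.81, SE 0.28, adjusted p = 0.138 for MCM6, and -0.78, SE 0.30, adjusted p = 0.194 for MCM4). MCM3 (4913, 3805 and 5197 against 5978, 5931 and 6926) and the GINS subunit GINS1 (968, 519 and 981 against 1586, 1042 and 1237) were also apart, with log2 differences of -0.45 and -0.68. MCM2, MCM5 and MCM7 had overlapping groups and log2 differences of -0.41, -0.13 and -0.25, and their values varied with the P number, as described below. The loader CDT1 was the exception in sign, at 0.18, with the widest within-group spread of the S-phase genes.

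Of the 7 enzymes of DNA synthesis and nucleotide supply, 4 had a difference below 0 (median -0.21). RRM1, the large subunit of ribonucleotide reductase, was at 2587, 2183 and 1980 normalized reads in GOLPH3 and at 4981, 4677 and 3555 in Vector, with a log2 difference of -0.96 (SE 0.27, adjusted p = 0.0709). Its partner RRM2, the small subunit, was at 4979, 8219 and 6842 against 9705, 7041 and 6313, and the groups overlapped (log2 difference -0.21, SE 0.30). POLA1, the catalytic subunit of the polymerase that starts each new strand, was at 965, 926 and 562 against 1692, 1533 and 1693.
For POLA1 the GOLPH3 library at P13 was the lowest of all, and the Vector libraries differed little (log2 difference -1.04, SE 0.30, adjusted p = 0.0711). PCNA was at 4407, 3297 and 4775 against 5687, 5064 and 5069, apart by a smaller amount (log2 difference -0.36). TK1, which salvages thymidine, went the other way, at 3453, 5328 and 5437 against 2310, 3307 and 3625. Its groups overlapped only through the GOLPH3 library at P8 (log2 difference 0.62, SE 0.30, adjusted p = 0.326). Thymidylate synthase (TYMS) had a log2 difference of 0.18. The leading-strand polymerase POLE was at 4154, 3834 and 3995 against 3399, 3333 and 4885 (0.07), with overlap through the Vector library at P13.

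Of the 5 regulators of entry into S phase, 4 had a difference below 0 (median -0.44). CDC25A, the phosphatase that activates cyclin E and cyclin A kinases, was at 669, 970 and 954 normalized reads in GOLPH3 and at 1318, 1848 and 1966 in Vector. Within each group its lowest value was at the lowest P number, and the groups were still apart (log2 difference -0.98, SE 0.30, adjusted p = 0.0862). Cyclin E2 was at 177, 135 and 154 against 437, 232 and 221 (log2 difference -0.86), while cyclin E1 (CCNE1) was at 744, 1159 and 1237 against 752, 939 and 857 (0.27), with overlap. The transcription factor E2F1 was at 725, 725 and 998 against 673, 970 and 1491 (-0.30). E2F2 had a log2 difference of -0.44, and the groups overlapped for both factors.

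In the G2/M set the lowest differences belonged to TOP2A and KIF11. TOP2A, which untangles sister chromatids before they part, was at 4835, 2846 and 2272 normalized reads in GOLPH3 and at 9395, 6503 and 6424 in Vector. Every Vector library was above every GOLPH3 library, and in both groups the lowest P number had the highest value (log2 difference -1.22, SE 0.33, adjusted p = 0.06). KIF11, the motor that pushes the spindle poles apart, was at 1419, 1048 and 700 against 2788, 1929 and 1749, with the same order of P numbers (log2 difference -1.06, SE 0.33, adjusted p = 0.0987). Without the GOLPH3 library at P8 both genes were called lower, at log2 differences of -1.53 and -1.30, the 2 members called there (6.07% of all genes).

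The cyclins and phosphatases around CDK1 showed small differences. CCNA2, CCNB1, CCNB2 and CDK1 had log2 differences of -0.37, -0.19, -0.02 and -0.40, all with overlapping groups. For CCNB2 the values were 1231, 1253 and 1040 normalized reads against 1196, 1403 and 987. The phosphatases that activate CDK1 lay on opposite sides of 0. CDC25B was at 4980, 6134 and 6200 normalized reads against 3189, 4840 and 3738 (log2 difference 0.57, SE 0.28, adjusted p = 0.323), and CDC25C was at 244, 167 and 194 against 275, 361 and 286 (-0.61, SE 0.32, adjusted p = 0.363). For both genes the groups were apart, by a narrow margin.

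Of the 3 anaphase control genes, 2 had differences above 0. CDC20 was at 3186, 4962 and 5562 normalized reads against 2362, 2931 and 3498 (log2 difference 0.62, SE 0.30, adjusted p = 0.326), and only its GOLPH3 library at P8 fell within the Vector range. UBE2C, at 1845, 3347 and 2764 against 1764, 3029 and 2005, had a log2 difference of 0.22 and PTTG1, which encodes securin, of -0.33, both with overlapping groups.

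The mitotic kinase and checkpoint genes all had overlapping groups. PLK1, a kinase of mitotic entry, was at 1935, 2187 and 2786 normalized reads against 1773, 2012 and 2759 (log2 difference 0.09). TTK, the kinase that starts checkpoint signalling, was at 1388, 841 and 614 against 2295, 1356 and 882 (-0.65, adjusted p = 0.452), highest at the lowest P number and lowest at P13 in both groups. AURKA, AURKB, BUB1 and BUB1B had differences of -0.11, -0.22, -0.55 and -0.26. The spindle assembly factor TPX2 was at 4862, 5113 and 3859 against 6283, 6045 and 4348 (-0.26), lowest at P13 in both groups. The survivin gene BIRC5 was at 2306, 2431 and 3057 against 2415, 2502 and 3075 (-0.04), highest at P13 in both groups.

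The 2 mitotic transcription factors also had overlapping groups. FOXM1 was at 1661, 1690 and 1689 normalized reads against 1534, 1531 and 1958 (log2 difference 0.01). MYBL2 was at 2222, 3491 and 3071 against 2260, 4263 and 5568 (-0.39, adjusted p = 0.625), with nearly equal values at the lowest P number of each group. NUSAP1 was apart and higher, but at only 30.1, 21.4 and 28.8 against 16.4, 17.5 and 14.6 normalized reads.

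The genes of the same pathways outside the member list were examined for the same comparison. Of 48 other replication genes, 45 had a difference below 0 (median -0.60). Groups were apart and lower for 24 (50%, against 12.8% of all genes). In the same list 7 genes were called lower with none higher (against 4.12% of all genes lower and 0.953% higher). They included CDC7, the kinase that fires origins (log2 difference -1.55, adjusted p = 0.00745), and DTL, which directs CDT1 to degradation (-1.39, adjusted p = 0.0122). POLD3, RFC3, RAD51AP1 and EXO1 were called lower as well. Of 58 other mitosis genes, 39 had a difference below 0 (median -0.38), and 13 were apart and lower (22.4%, against 12.8% of all genes). Only 2 were called lower, against 4.12% of all genes. They were the kinetochore gene CENPU (-1.53, adjusted p = 0.0186, limma) and the motor gene KIFC1. KIFC1 was at 3.2, 9.9 and 1.1 against 191.7, 14.4 and 150.2 normalized reads, so its 3 Vector libraries themselves differed widely. The library medians of these lists had the GOLPH3 libraries below the Vector libraries without overlap in the S-phase, other replication and other mitosis lists, and with overlap in the G2/M list.

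A list of cell cycle brakes, drawn up by hand, showed no call. It also holds MDM2 and PPM1D, which act against p53 and are not brakes themselves. Of its 25 genes, 14 had a difference below 0 and 11 above, with a median of -0.06. At an unadjusted p of 0.05, 1 was higher (CDKN1A) and 3 were lower, against 7.51% of all genes higher and 10.1% lower. The 3, named after their values were seen, were LIN9 (-1.14), RBL1 (-0.95) and LIN54 (-0.67). They encode parts of the complexes that repress cell cycle genes in resting cells. LIN9 and LIN54 belong to MuvB, which also switches mitotic genes on, as described above, so they are not brakes alone. CDKN1A, which encodes the CDK inhibitor p21, was at 5802, 13132 and 9892 normalized reads in GOLPH3 and at 3029, 6688 and 4642 in Vector (log2 difference 1.00, SE 0.38, adjusted p = 0.182). The groups overlapped through the GOLPH3 library at P8, and in each group the lowest value was at the lowest P number and the highest at P12.

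**Figure D3:**
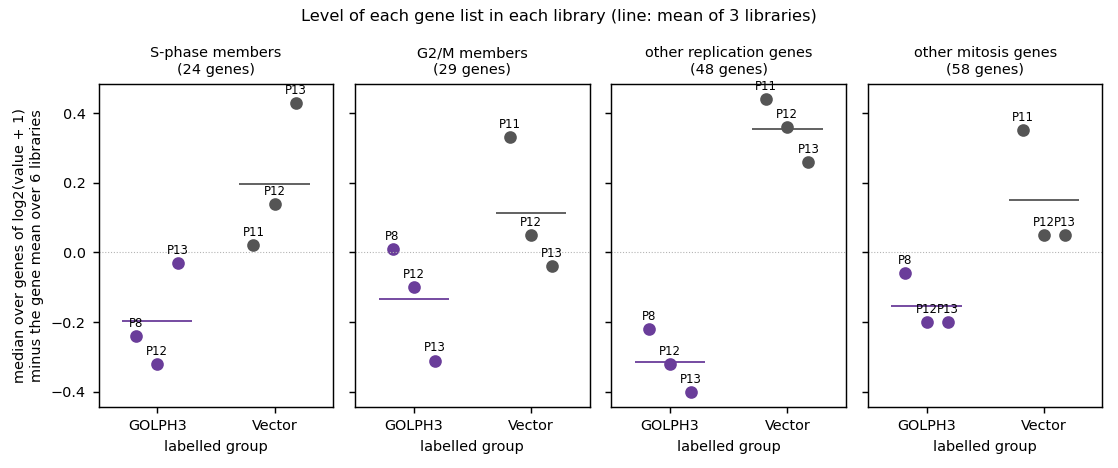
Level of each gene list in each library, as the median over genes of log2(value + 1) minus the gene's mean over the 6 libraries (y axis), for the S-phase members, the G2/M members and the 2 lists of other pathway genes. Points are libraries marked with their P number and lines are means of 3 libraries. The groups are apart for S-phase members (-0.32 to -0.03 in GOLPH3, 0.02 to 0.43 in Vector) and overlap for G2/M members (-0.31 to 0.01 and -0.04 to 0.33).

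The difference between groups was also read at P12 and at P13 alone, where each group has 1 library. The S-phase median was -0.60 at P12 and -0.51 at P13, with 18 and 20 of 24 genes below 0. The G2/M median was -0.16 and -0.18, with 18 and 21 of 29 below 0. When the P number was added to the fit as a factor, 20 members were called lower and 3 higher (TK1, CDC20 and CDC25B), where the same fit called 22.9% of all genes, 13% lower and 9.93% higher. Of the 20, 11 were S-phase and 9 were G2/M genes. With the P number as a covariate 6 were called, all lower, namely MCM10, RRM1, POLA1, KIF11, TOP2A and DLGAP5 (9.04% of all genes). P8 and P11 each occur in 1 library, so the factor fits these libraries exactly and they add nothing to the group difference. It therefore rests on the P12 and P13 libraries alone. The fit with P as a factor has 1 residual degree of freedom, so its p-values rest mostly on the spread borrowed from other genes.

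The libraries at P13 were compared with those at P12 with the group as a term. The P8 and P11 libraries are fitted exactly here too, so the comparison rests on the P12 and P13 libraries alone. The sources used here give no purpose for the P numbers, and the comparison describes them. Helicase subunits and 1 mitotic kinesin rose at P13, and a licensing gene and a spindle gene fell. In all 7 of 53 members were called (13.2%), against 11.3% of all genes tested and 23.2% of those with a mean of at least 100 normalized reads, so the share of members called was below that of genes of like abundance. MCM2, MCM5, MCM7, GINS1 and KIF20A were higher at P13, as 5.81% of all genes were, and CDC6 and HMMR were lower, as 5.45% were.

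MCM5 was at 1742 and 3843 normalized reads at P12 and P13 in GOLPH3, and at 2303 and 4223 in Vector. It rose by a log2 difference of 1.14 in GOLPH3 and 0.87 in Vector (1.01 in the fit, SE 0.19, adjusted p = 7.36e-05). MCM2 went from 1594 to 2653 in GOLPH3 and from 2387 to 3982 in Vector (log2 difference 0.74, SE 0.19, adjusted p = 0.0044). For MCM2 the rise was 0.73 in GOLPH3 and 0.74 in Vector. In both genes the other library of each group was nearer to P12 than to P13, at 2467 at P8 and 2248 at P11 for MCM5 and at 2017 and 2086 for MCM2.
MCM7 rose from 5767 to 7875 and from 6566 to 11220 (0.61, adjusted p = 0.0394), and GINS1 rose from 519 to 981 and from 1042 to 1237 (0.58, adjusted p = 0.0409). CDC6 fell from 3575 to 2377 and from 4276 to 2711 (-0.62, adjusted p = 0.0208). At P8 and P11 MCM7 was at 6382 and 6675 and CDC6 at 2370 and 3351. The other loader, CDT1, had a log2 difference of 0.45 and did not pass the test (adjusted p = 0.12). Among the 12 genes of origin licensing and the helicase, 10 were higher at P13 in both groups, and CDC6 alone was lower in both.

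KIF20A, a kinesin of the central spindle, went from 639 to 1288 normalized reads in GOLPH3 and from 691 to 1230 in Vector (log2 difference 0.92, SE 0.19, adjusted p = 0.000352). HMMR, a spindle-associated protein, went from 1028 to 476 and from 1222 to 859 (-0.81, SE 0.20, adjusted p = 0.00243). At P8 and P11 KIF20A was at 1563 and 1415 and HMMR at 1216 and 1456, the highest value of each gene in its group. CENPE had a P13 minus P12 difference of -0.79 in GOLPH3 and 0.65 in Vector, and CENPF of -0.79 and 0.93. Over the set, S-phase genes had a median P13 minus P12 difference of 0.19 in GOLPH3 and 0.17 in Vector, while G2/M genes had -0.18 and -0.12, and 36 of 53 members had the same sign in both groups.

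**Figure D4:**
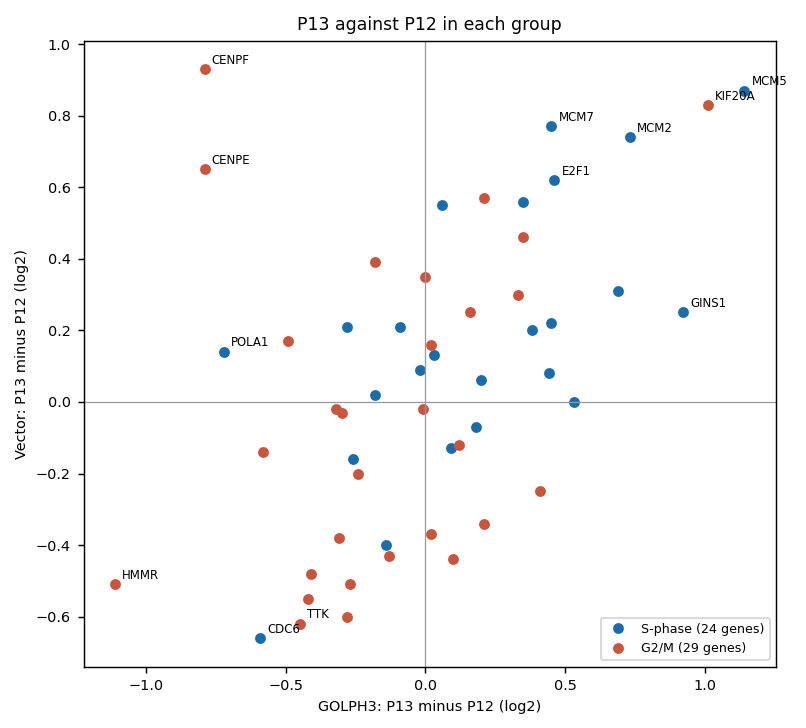
P13 minus P12 on log2(value + 1) in the GOLPH3 group (x axis) and in the Vector group (y axis) for the 53 genes, with S-phase genes in blue and G2/M genes in red. MCM5, MCM2 and KIF20A lie at the upper right and HMMR and CDC6 at the lower left, while CENPE and CENPF have opposite signs in the groups.

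The calls between P13 and P12 depended on the fit. DESeq2 called 6 of the 7 members and not GINS1 (12.5% of its genes), edgeR called MCM2, MCM5, KIF20A and HMMR (8.05% of its genes), and no member was called without the filter on low values or after quantile normalization, where no gene at all was called although 4485 and 4739 genes had an unadjusted p under 0.05. Under the filter and scaling used here, 8 of 48 other replication genes were called, 3 higher (the polymerase POLD1 at 0.94, the origin subunit ORC1 at 0.88 and the ligase LIG1 at 0.70) and 5 lower, led by RAD51AP1 at -0.74, ATAD2 at -0.68 and RFC1 at -0.66. Of 58 other mitosis genes, 7 were called higher, led by TUBB4B, INCENP and NCAPD2 at 1.12, 0.93 and 0.81, and 10 lower, led by NDC80, NCAPG and SMC2 at -0.96, -0.88 and -0.83. Of 25 brakes, 3 were called higher (BTG2, TOB1 and CDKN1C) and 5 lower, led by BTG1 at -1.53 and GADD45A at -1.12. The shares called were 16.7% of the other replication genes, 29.3% of the other mitosis genes and 32% of the brakes. They stand against 11.3% of all genes tested and 23.2% of those with a mean of at least 100 normalized reads, and the differences between these shares were not tested.

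A further pattern set the library of the lowest P number apart in each group. It was chosen for description after the values had been seen, rests on 1 library in each group and was not tested. Genes of the kinetochore and spindle were higher at P8 than in the other GOLPH3 libraries, and higher at P11 than in the other Vector libraries. All 9 genes of that role had a positive difference from the mean of P12 and P13 in both groups, with medians of 0.78 in GOLPH3 and 0.62 in Vector. Over all G2/M genes 12 of 29 were higher by more than 0.5 in both groups, and no S-phase gene was, against 3640 of all 26536 genes tested. Of the 58 other mitosis genes 16 were higher by this amount in both groups, and of the 48 other replication genes 5 were.

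CENPE, the motor that carries chromosomes to the metaphase plate, was at 1035, 519 and 300 normalized reads in GOLPH3 and at 1436, 379 and 596 in Vector. CENPF, a large protein of the outer kinetochore whose promoter is shown above with its CHR letters, was at 4499, 2631 and 1519 against 7125, 2536 and 4846. MKI67, the proliferation antigen that coats mitotic chromosomes, was at 10856, 7882 and 5621 against 11631, 5783 and 6488. In each gene the first library of each group was the highest, and the order of P12 and P13 was opposite in the 2 groups.
The checkpoint kinase TTK and the spindle protein DLGAP5 were also highest in the first library of each group, but both were lower at P13 than at P12 in each group. Their differences were 0.95 and 1.04 at P8 and 1.07 and 0.93 at P11. BUB1, BUB1B, KIF11, KIF20A, KIF23, HMMR and TOP2A were the other genes higher by more than 0.5 in both. For MKI67 the group means were almost equal (log2 difference 0.05), although its values spanned 5621 to 11631.

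Other members moved the opposite way at the lowest P number. CDT1 was at 1671, 2623 and 3337 normalized reads in GOLPH3 and at 1062, 2535 and 3729 in Vector, the lowest at P8 and at P11, with differences of -0.82 and -1.53. E2F2 (-0.60 and -0.78), TK1 (-0.64 and -0.58) and CDC25A (-0.52 and -0.53) were the other S-phase genes lower by more than 0.5 in both groups. In all 4 of 24 S-phase genes and 5 of 53 members were lower by this amount, against 4408 of all 26536 genes tested. The S-phase share was near that of all genes, and the share of all members was below it. In the G2/M set MYBL2, which acts earlier than FOXM1, was the single gene of this kind, at -0.56 and -1.11. CDC20 and UBE2C were lower as well, both at -0.72 at P8 and at -0.44 and -0.48 at P11, so that these genes and the kinetochore genes lay on opposite sides of 0. CDKN1A was lower by 0.97 at P8 and by 0.88 at P11, on the log2 scale.

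**Figure D5:**
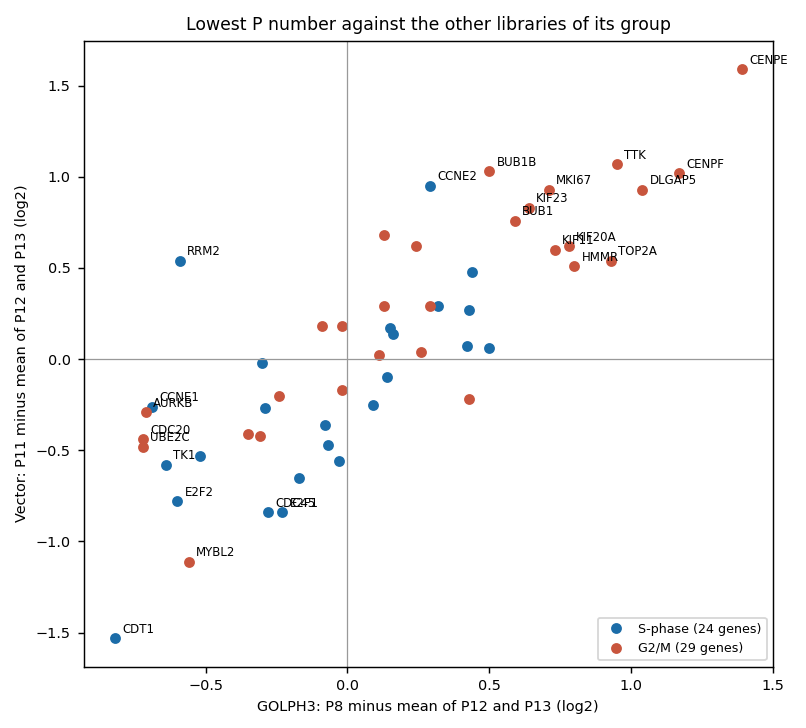
Difference between the library of the lowest P number and the mean of the P12 and P13 libraries of its group, on log2(value + 1), for P8 in GOLPH3 (x axis) and P11 in Vector (y axis). CENPE, CENPF, TTK and DLGAP5 lie at the upper right, and CDT1, MYBL2, E2F2 and TK1 at the lower left.

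Across the 53 members the difference at P8 and the difference at P11, which share no library, had a Pearson r of 0.82 and a Spearman rho of 0.82. Across 10703 protein-coding genes with a mean of at least 100 normalized reads r was 0.69 and rho 0.73, so the agreement between the libraries was not particular to the members. The difference also moved with exon length. Among members with under 3000 exon bases the median difference was -0.26 in both groups, among those of 3000 to 6000 it was 0.14 in both, and among those above 6000 it was 0.61 in GOLPH3 and 0.65 in Vector. Above 6000 bases the 6 G2/M genes had medians of 0.82 and 0.88, but the 4 S-phase genes had 0.25 and -0.09. Spearman rho with exon length was 0.64 and 0.59 for G2/M genes, and 0.33 and 0.28 for S-phase genes. Protein-coding genes at large went from -0.41 to 0.20 in GOLPH3 and from -0.48 to 0.14 in Vector over the same classes of size. Genes and libraries are shared within each of these relations, so no p is given. Mitochondrial reads were at 9.97% at P8 and 9.88% at P11, but also at 9.75% in the GOLPH3 library at P13 and at 4.41% to 7.08% in the others. The part of exon length and of mitochondrial reads in the pattern was not tested.

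The balance of S-phase against G2/M transcripts in each library was taken as the median S-phase deviation minus the median G2/M deviation from the gene means. It was -0.25, -0.21 and 0.27 in GOLPH3 and -0.30, 0.09 and 0.47 in Vector at the P numbers in order. In both groups the lowest value was at the lowest P number and the highest at P13, and the groups overlapped.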

How the data were processed

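RNA of 3 libraries labelled PMSCV-GOLPH3 and 3 labelled PMSCV-Vector was sequenced by the authors. The submitters' processing notes name fastp 0.20.0, HISAT2 2.1.0, Cufflinks, featureCounts 1.6.1, DESeq2 and GRCh38, without role or order. The deposited signal is a normalized read number per gene and library, and 100% of the values were whole multiples (within 0.01 of a read) of a step between 0.82461 and 1.0955, so the reads were recovered by division. The table had 60590 rows, and the values of 44 identifiers listed a second time were summed. Exon lengths, for which the values are not corrected, came from GENCODE 29. They cover all annotated exons of a gene together and can exceed the length of any single transcript.

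Tests used limma 3.58.1 (R 4.3.3) on log2(value + 1) for the 26536 genes that reached 1 in 3 or more libraries, with a mean-dependent prior variance and the Benjamini-Hochberg adjustment over all of them. The first fit compared the groups over all 6 libraries, and the second compared P13 with P12 with group and P number as factors. edgeR 4.0.16 and DESeq2 1.42.0 on recovered reads, other pseudocounts, filters and scalings, the replicate number as a block, the P number as a term and the removal of each library were the alternatives.

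A limit of 3 reads corresponds to 2.47 to 3.29 normalized reads, and it covers counting error only. Within groups, no 2 libraries agreed within sampling noise (chi-square per degree of freedom of at least 65.35). Nothing states that the libraries came from separate infections, so p-values measure the spread between these libraries, which may be partly technical. The members and all gene lists were chosen with earlier results of these data known, and the genes' roles were assigned by hand. Values in every library are given for members called or with groups that do not overlap, and for those with the highest level or largest difference of a role. Of the other lists, CDKN1A and up to 3 called genes in each direction are given, and 1 gene counted in them is not reported here. The genes of the pattern at the lowest P number were chosen after their values were seen. Promoters came from RefSeq, with an entry for 44 of 53 members. The fits were also run on simulated reads, with the same spread for all genes and no differences between libraries beyond those put in. That setting is simpler than these data, so it does not show how the fits behave on them.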

Additional observations from a re-analysis of the deposited data

Results flagged for a closer look

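Under the contrast of P13 with P12, 17 of 53 members had log2 differences on opposite sides of 0 in the 2 groups. The difference was below 0 in GOLPH3 and above 0 in Vector for CENPF (-0.79 and 0.93), CENPE (-0.79 and 0.65), POLA1 (-0.72 and 0.14), MKI67 (-0.49 and 0.17), CDC45 (-0.28 and 0.21), MYBL2 (-0.18 and 0.39), TYMS (-0.18 and 0.02), E2F2 (-0.0886 and 0.206), CDC25A (-0.0231 and 0.0897) and FOXM1 (-0.00144 and 0.355). It was above 0 in GOLPH3 and below 0 in Vector for NUSAP1 (0.41 and -0.25), CDC25C (0.21 and -0.34), CCNE2 (0.18 and -0.07), BUB1 (0.12 and -0.12), PTTG1 (0.10 and -0.44), CCNE1 (0.0947 and -0.13) and CDC25B (0.0154 and -0.37). Each value rests on 1 library at each P number, several lie close to 0, and the difference between the groups was not tested.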

How the results depend on the processing

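The medians of the S-phase and G2/M genes between GOLPH3 and Vector kept their sign and moved by less than the spread between libraries under every alternative run. The GOLPH3 transcript kept its sign, at log2 differences of -0.44 to -0.23, and was not called under any of them. Without 1 library the S-phase median was -0.53 to -0.38 and the G2/M median -0.43 to -0.10. Members called between the groups numbered 0, but 5 with DESeq2, 6 with the P number as a covariate and 23 with it as a factor, and 0 to 2 without 1 library. Other pathway genes called numbered 9, but 4 with values of at least 10 in every library and 14 with DESeq2. They numbered 26 and 63 with the P number as a covariate and as a factor, and 2 to 14 without 1 library. The count was 14 without GOLPH3 replicate 1, 2 without GOLPH3 replicate 3 or Vector replicate 1, and 5 without Vector replicate 3. Calls over all genes moved as well, from 1346 of 26536 to 170 of 13778 with values of at least 10 in every library. DESeq2 called 8.68% of its genes, and the fits with the P number called 9.04% and 22.9%. Without GOLPH3 replicates 1 and 3 the calls were 1528 of 25192 and 881 of 25281. Without Vector replicates 1 and 3 they were 459 of 24813 and 481 of 25152. With the replicate block no member was called and the pathway genes called were 7. Correlations between libraries of the 2 groups were taken over each gene's log2 deviations from its group mean, not over expression levels. Such deviations sum to 0 within a group, so positive values for some pairs force negative values for others. On this measure same-numbered libraries correlated at -0.232, -0.151 and 0.259, and the replicate numbers were not read as pairs. Libraries of the same P number correlated at 0.256 (P12) and 0.259 (P13), and P8 with P11 at 0.331, while the other pairs were between -0.232 and -0.014.

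Between P13 and P12, 7 members were called, but 4 with edgeR and 0 with a pseudocount of 0.1, without a filter, after quantile normalization or with P12 set against all other libraries. Pathway genes called numbered 33, but 3 with a pseudocount of 0.1, 16 with DESeq2, 15 with edgeR and 0 under the last 3 of these settings. Calls over all genes moved as well, from 2988 of 26536 to 299 with a pseudocount of 0.1 and 0 under the last 3 settings. DESeq2 called 12.5% of its genes and edgeR 8.05%, against 11.3% in the first fit of this contrast. The S-phase median of 0.20 was 0.22 after quantile normalization, 0.17 within Vector alone and 0.06 with P12 set against all other libraries, where the G2/M median of -0.16 became 0.08. Single genes near 0 changed sign. MKI67 was at -0.09 after quantile normalization, -0.15 with the P number as a covariate and -0.19 to 0.36 without 1 library. PLK1 was at -0.01 after quantile normalization and at -0.06 to 0.27 without 1 library, RRM2 at 0.17 with P as a factor, and TTK at 0.10 with P12 against all other libraries. The cause of these changes was not tested.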
